A study of Mus musculus with 12 samples.

Results

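The comparison is between inguinal GFP+ and inguinal GFP- fibroblasts, 3 arrays in each group, which are 6 of the 12 Affymetrix arrays of the series. Members were chosen by their labels, not by any measured value. All cells came from 6 to 8 week old male mice, Zfp423-GFP transgenic, on a background of FVB and C57BL/6. Stromal vascular cells, the non-fat-cell fraction of adipose tissue, were cultured from the inguinal (subcutaneous) depot, sorted on green fluorescent protein into a positive and a negative population, put back into culture in DMEM/F12 with serum, and harvested while still subconfluent. The other 6 arrays hold the same sort on epididymal (visceral) fat of such mice and share the transgene, sex, age and medium. The labels do not say which Zfp423 sequence drives GFP, how many mice were pooled, or how long the sorted cells grew. The replicates are not said to be separate animals or cultures. The p-values therefore reflect the scatter of these arrays, part or all of which may be technical.

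The zinc-finger transcription factor Zfp423 is known from mouse work to commit fibroblasts to the adipocyte lineage, where it raises Pparg before any lipid is stored. A preadipocyte is such a committed fibroblast. It still divides, lacks the lipid droplets and secreted hormones of a fat cell, and is known to reside partly along blood vessels, next to mural cells. The comparison asks which other genes are expressed differently between inguinal fibroblasts with and without GFP from the transgene.

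Values are array signals on a linear scale. Fold changes were computed on log2(signal + 16), which shrinks the change of dim genes, and are given as GFP+ over GFP- or, for a fall, as GFP- over GFP+. A gene was called where limma's adjusted p (Benjamini-Hochberg over 12393 genes, all 12 arrays in the fit) was under 0.05, and "rose" and "fell" are used only for called genes. Errors of log2 fold changes are standard errors (SE). A group mean under a signal of 77.7 was counted as weak, a limit set at the lowest 30% of genes by mean log2 signal. For scale, 61 olfactory and vomeronasal receptor genes, which fibroblasts do not use, had medians of 19.5 in GFP+ and 19.4 in GFP-. Array medians lay between 347.3 and 361.7, and arrays of one group correlated across genes at 0.993 to 0.995. One GFP+ array lay closer to the GFP- arrays in the larger changes, although the GFP+ arrays all correlated with each other at 0.993. GFP+ replicate 2 was the GFP+ array nearest to the GFP- mean in 31 of the 50 genes that rose by at least 2-fold and in 35 of the 72 that fell by as much outside the leukocyte lists. Without it every called gene named below kept its call. The number of arrays limits the precision.

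The 4 marker genes of the sorted cells were all higher in GFP+ cultures, with no overlap between groups. Zfp423 read 151, 112 and 110 in the GFP+ replicates and 47.4, 73.2 and 51.7 in the GFP- replicates. The gene was therefore near the weak limit in the GFP- arrays and its log2 fold change of 0.94 ± 0.18 (adjusted p = 0.00198, limma) is a shrunken value. Pparg, the master nuclear receptor of adipogenesis, read 796, 912 and 805 in GFP+ and 355, 343 and 305 in GFP-. That is a 2.44-fold rise (log2 1.28 ± 0.15, adjusted p = 1.36e-05, limma). Fabp4, a fatty acid carrier and early target of Pparg, read 5013, 5703 and 4022 against 1399, 1417 and 1301, a 3.52-fold rise.

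Mrap was the gene with the largest rise of the whole comparison. It encodes the accessory protein that carries melanocortin receptors to the cell surface. Its signal was 518, 417 and 475 in the GFP+ arrays and 31.2, 19.1 and 37.8 in the GFP- arrays. The rise was 10.8-fold (log2 3.44 ± 0.16, adjusted p = 7.73e-10, limma), with the GFP- values close to the level of the receptor genes that fibroblasts do not use. The receptors that Mrap is known to serve were dim on both sides: Mc2r had means of 16.8 and 12.03 and Mc5r of 36.2 and 35.0, and neither was called.

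None of the 10 measured markers of mature fat cells was called, and Adipoq, which encodes adiponectin, had means of 22.3 in GFP+ and 18.7 in GFP-. Of 24 general fibroblast genes 8 rose and 2 fell (0 with no variance trend), with a median of 0.05, and 1 was weak in both groups. Both populations carried the fibroblast transcripts Col1a2 and Vim: Col1a2 averaged 36512 and 37389, and Vim 37793 and 36939, in GFP+ and GFP-. Neither of the 2 was called.

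**Figure D1:**
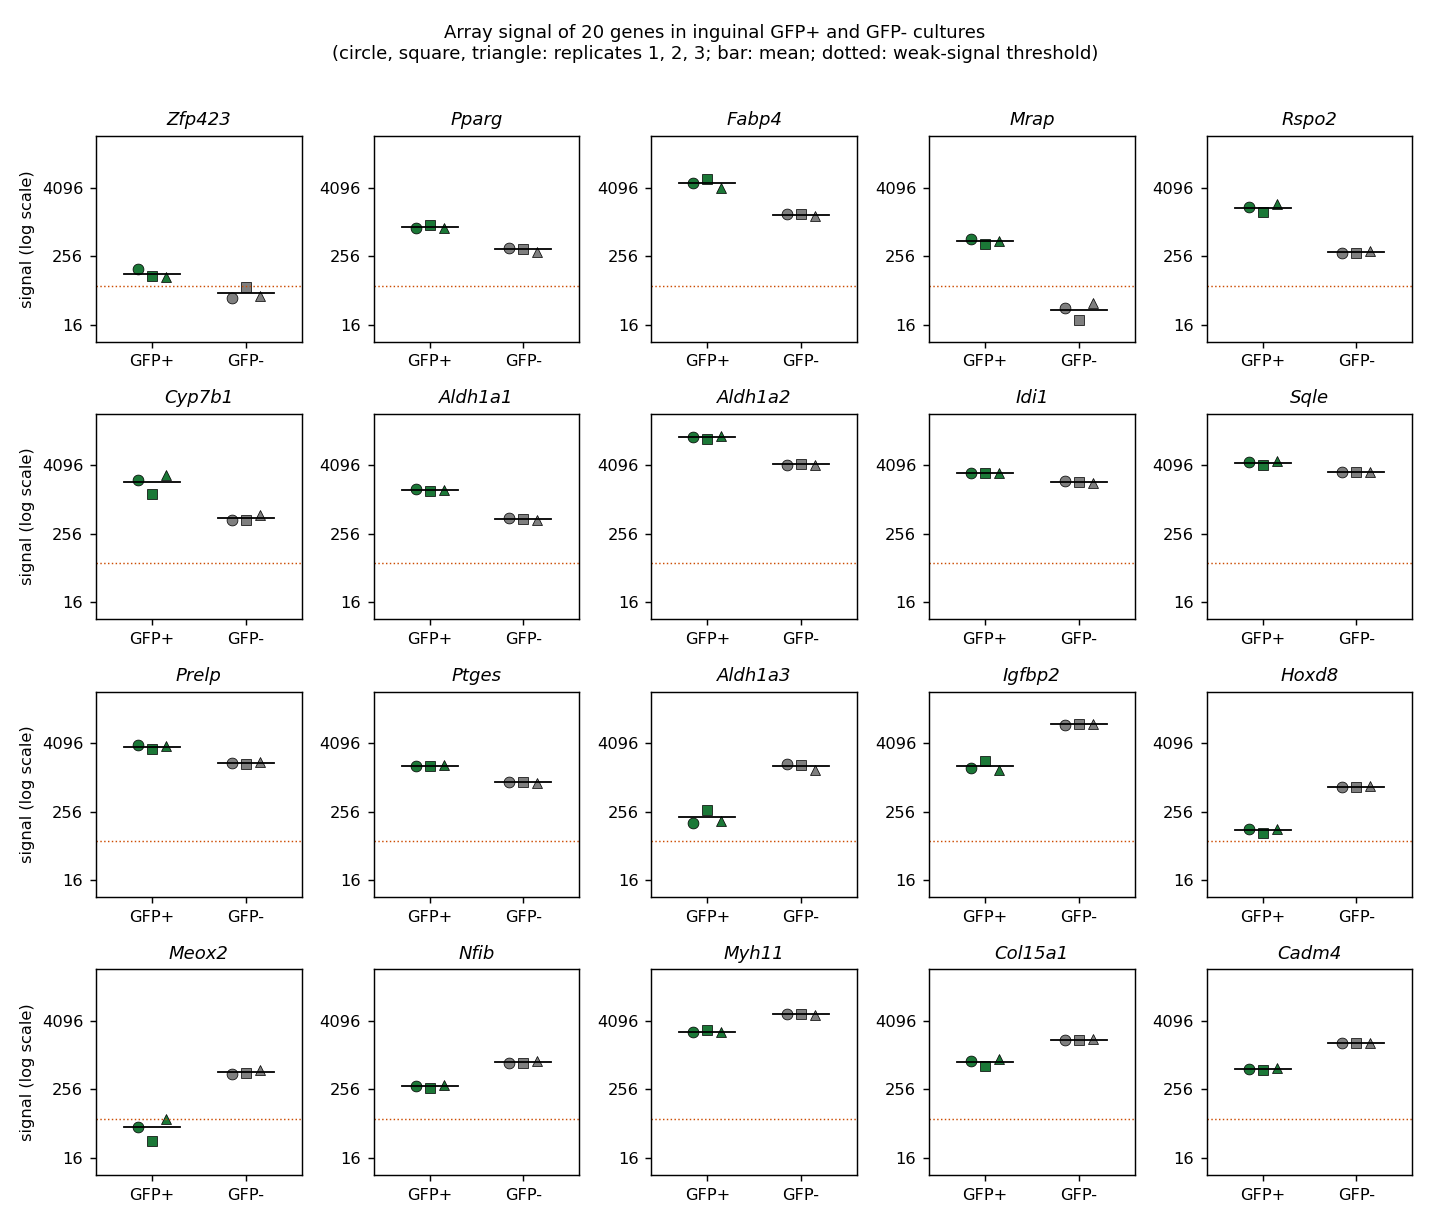
Array signal (vertical axis, log scale, no unit) of 20 genes in the 3 inguinal GFP+ and 3 inguinal GFP- arrays; the symbols give the replicate number, bars the group mean and the dotted line the weak-signal limit of 77.7. The groups do not overlap in any of the 20 panels, which the naming rule given at the end required of many of these genes. The means of Zfp423 and Mrap in GFP- and of Meox2 in GFP+ lie below the dotted line.

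Across all genes 1556 were called (12.6%). Of these, 652 rose (5.26%) and 904 fell (7.29%) in GFP+. These shares are the background for every list count below. A change of at least 2-fold was rarer, with 50 genes up (0.403%) and 118 down (0.952%). Leukocyte genes made up 77 of the falls and 46 of the 118 falls of at least 2-fold. Among the 25 measured defining markers of macrophages and other leukocytes 17 fell and 1 rose, with a median log2 fold change of -1.61 against -0.01 over all genes. The summed signal of these 25 genes was 6636 to 7203 in GFP+ and 14785 to 17251 in GFP-, and 16 of the 25 were weak in GFP+ against 4 in GFP-. With weak genes left out of the fit 9 fell. Lyz2, the lysozyme of myeloid cells, read 231, 160 and 212 in GFP+ and 3561, 4327 and 4146 in GFP-. The exception was Cd53, a tetraspanin of leukocytes, whose means were 4110 in GFP+ and 2160 in GFP-. In bulk RNA fewer cells of a type and less RNA per cell cannot be told apart, and the part of these cells in any result below was not tested.

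Outside both leukocyte lists (270 measured genes) 12123 genes remained, of which 647 rose and 827 fell, 50 and 72 of them by at least 2-fold. Centring each array on its median turned this split to 768 up and 654 down, because the median gene differed by -0.018 between the groups, so the balance of small changes is set by the scaling. Without GFP+ replicate 2, 799 genes outside the leukocyte lists rose and 969 fell. Bright genes were called more often: of 4826 with means of at least 1000 in both groups, 394 rose and 488 fell. The leukocyte lists do not hold every gene that leukocytes express. Some of the largest falls outside the lists, not named here, were in genes known from myeloid and other blood cells. The part of leukocytes in the 72 falls was not tested.

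**Figure D2:**
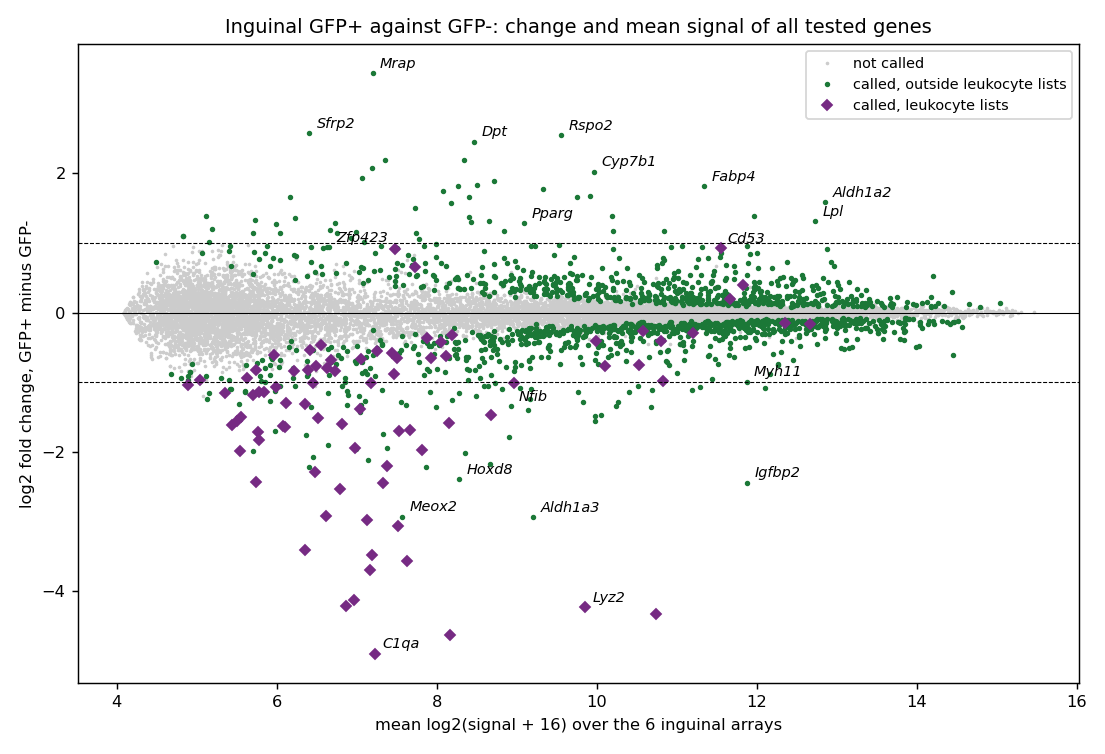
Log2 fold change of GFP+ over GFP- in inguinal cultures (vertical axis) against mean log2(signal + 16) over the 6 arrays (horizontal axis); each point is a gene, diamonds are called genes of the leukocyte lists and dashed lines mark 2-fold. Called leukocyte genes lie mostly below zero at low to middle signal, while Rspo2, Cyp7b1, Aldh1a2 and Lpl rise and Igfbp2 and Aldh1a3 fall at higher signal.

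Secreted regulators of Wnt signalling were among the largest increases. R-spondins are secreted proteins that bind Lgr receptors and strengthen Wnt signals. Rspo2 read 1890, 1502 and 2063 in GFP+ and 288, 287 and 315 in GFP-, a 5.82-fold rise (log2 2.54 ± 0.17, adjusted p = 4.23e-08, limma). Lgr6, an R-spondin receptor, read 445, 512 and 483 against 155, 99.2 and 146, a 3.36-fold rise. Ligand and receptor thus rose together. Each GFP+ array was above each GFP- array, which the naming rule required of both genes. Sfrp2, a secreted Wnt-binding protein, read 211, 90.9 and 349 in GFP+ and 16.9, 22.2 and 17.6 in GFP-. Its rise (log2 2.57 ± 0.34, adjusted p = 5.71e-05, limma) rests on GFP- values at the array floor, and GFP+ replicate 2 was again the lowest GFP+ array. Dkk2, a secreted modulator of the Wnt co-receptor, rose from a mean of 2460 to 6455. With a pseudocount of 1 its log2 fold change was 1.39 but its call was lost (adjusted p = 0.131, limma). With inguinal arrays only its call held, and the cause of the loss was not tested.

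The Wnt ligands themselves did not rise with them. Of 28 measured secreted Wnt proteins and antagonists 4 rose and 2 fell (5.26% and 7.29% over all genes), with a median of 0.03. Both that fell were ligands, Wnt4 (means 67.4 and 148) and Wnt5a (1314 and 1749, 1.33-fold). Among 30 Wnt receptors and targets 4 rose and 5 fell. Axin2, a common target gene of the pathway, had means of 104 and 83.2 and was not called (adjusted p = 0.318, limma).

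Single genes of steroid hormone handling and response also rose. Cyp7b1, the enzyme that hydroxylates oxysterols and androgen metabolites, read 2252, 1301 and 2729 in GFP+ and 449, 454 and 548 in GFP-, a 4.05-fold rise (log2 2.02 ± 0.18, adjusted p = 1.1e-06, limma). Pgr, the progesterone receptor, was at 129, 95.1 and 114 against 17.0, 31.7 and 26.4, so it was weak in every GFP- array and above the weak limit in every GFP+ array. Greb1, known as a target of oestrogen receptors, rose 3.56-fold, from a mean of 177 to 671. Esr1, which encodes an oestrogen receptor, was weak in both groups (means 6.96 and 13.2) and not called. Avpr1a, a vasopressin receptor, rose 2.24-fold (means 2744 and 1214). Over the whole list of 32 steroid and xenobiotic metabolism genes, however, 3 rose and 3 fell. The rises numbered 1 without GFP+ replicate 1 or GFP- replicate 2, and 5 without GFP+ replicate 2. The fallers included Ahr, the aryl hydrocarbon receptor (means 426 and 743), and Ephx2, an epoxide hydrolase (332 and 486).

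Enzymes that make retinoic acid changed in opposite directions. Retinoic acid is the active form of vitamin A, and the Aldh1a enzymes catalyse its last step from retinaldehyde. Aldh1a2 read 13104, 11839 and 13523 in GFP+ and 4227, 4400 and 4176 in GFP-, a 2.99-fold rise (log2 1.58 ± 0.04, adjusted p = 1.98e-12, limma). Aldh1a1 rose 3.15-fold, from values of 488, 475 and 452 to 1591, 1471 and 1495. Aldh1a3 went the other way, with 161, 276 and 172 in GFP+ and 1777, 1712 and 1399 in GFP-. Its fall was 7.68-fold (log2 -2.94 ± 0.17, adjusted p = 1.01e-08, limma), the steepest outside the leukocyte lists beside Meox2. All 3 genes separated the groups with no overlap, which the naming rule required of them.

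Around these enzymes 7 of 26 measured retinoid genes rose and 3 fell, with a median of -0.06. Crabp1, which binds retinoic acid in the cytoplasm, rose 3.17-fold (means 586 and 175). Rarres2, a retinoid-responsive gene that encodes the adipokine chemerin, rose 2.60-fold (1886 and 711). Both separated the groups in all 6 arrays, again a condition of the naming rule. Aldh1a2 is also on a list of 16 mesothelial genes, of which 4 rose and 3 fell, with a summed signal of 15667 to 16995 in GFP+ and 7464 to 7844 in GFP-. Most of that sum is Aldh1a2 itself, and the defining genes Msln and Upk3b were weak in both groups (means 37.2 and 47.3, and 10.5 and 12.5). Krt7, a keratin gene on the same list, was also among the 4 that rose. The part of mesothelial cells in these values was not tested.

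Sterol synthesis had the largest share of increases among the groups described here. Cells make cholesterol from acetyl-CoA through about the same chain of enzymes in every tissue, and transcription factor SREBP-2, encoded by Srebf2, switches the genes on when membrane sterol is low. Of 20 measured genes of the pathway 15 rose and 0 fell, with a median log2 fold change of 0.36 against -0.01 over all genes. Without GFP+ replicate 2 the count was 16, and leaving out any single array gave 13 to 16. The changes were small and steady. Idi1, the isopentenyl diphosphate isomerase, read 3038, 2970 and 3049 in GFP+ and 2141, 2064 and 2030 in GFP-, a 1.45-fold rise (log2 0.54 ± 0.04, adjusted p = 9.29e-08, limma). Sqle, squalene epoxidase, read 4625, 4131 and 4859 against 3060, 3155 and 3148, also a 1.45-fold rise. Cyp51, the lanosterol demethylase, read 6247, 5555 and 5966 against 4019, 4433 and 4161. Each of these 3 genes had its lowest GFP+ array above its highest GFP- array. Hmgcs1, which condenses acetyl units early in the pathway, rose 1.24-fold (means 8851 and 7107), and Nsdhl, which acts in removing the methyl groups of lanosterol, rose 1.40-fold (3977 and 2828). Lss, the lanosterol synthase, had the largest change in the list at 1.47-fold, and its call was lost when the probe sets of the gene were averaged. Srebf2 itself had means of 1472 and 1303 and was not called (adjusted p = 0.204, limma).

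Since the pathway genes moved together, their promoters were searched for shared motifs in 300-base windows that begin upstream of each annotated start and end just after it (RefSeq, build GRCm38.p6). Promoters of sterol genes are known to pair an SREBP site with a CCAAT box, which binds the factor NF-Y. The motif CCAAT, on either strand, occurred in the windows of all 16 sterol genes that have one, in 16 of their 21 windows. For comparison 42.3% of the 9887 tested genes with a window and 37.4% of all 32851 windows hold it, as do 57.1% of 35 genes that rose by at least 2-fold and 37.5% of 56 that fell by as much outside the leukocyte lists. One form of the sterol regulatory element, TCACNCCAC, was present in 1 of the 16 sterol genes and 1.5% of tested genes. The hexamer AGGTCA, a core site of many nuclear receptors, was in 2 of the 16 and in 16.3% of all windows. GCACCC, part of the site bound by the rat homologue of Zfp423, was in 5 of the 16 and 21.1% of tested genes, and in 22.9% of the genes that rose and 23.2% of those that fell by at least 2-fold. A match describes these letters only. The windows of 4 sterol genes are shown, chosen because their calls held under every alternative, with matches to CCAAT (or ATTGG, the same box on the other strand) and to TCACNCCAC in capitals.
Hmgcs1 promoter window, chr13:119690101-119690400 (+ strand): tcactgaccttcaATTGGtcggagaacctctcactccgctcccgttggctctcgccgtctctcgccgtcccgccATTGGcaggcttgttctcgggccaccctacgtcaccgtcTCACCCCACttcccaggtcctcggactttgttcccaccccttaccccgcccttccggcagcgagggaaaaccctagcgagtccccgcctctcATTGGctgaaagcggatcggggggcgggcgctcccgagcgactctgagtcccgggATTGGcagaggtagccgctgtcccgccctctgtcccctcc
Idi1 promoter window, chr13:8885356-8885655 (+ strand): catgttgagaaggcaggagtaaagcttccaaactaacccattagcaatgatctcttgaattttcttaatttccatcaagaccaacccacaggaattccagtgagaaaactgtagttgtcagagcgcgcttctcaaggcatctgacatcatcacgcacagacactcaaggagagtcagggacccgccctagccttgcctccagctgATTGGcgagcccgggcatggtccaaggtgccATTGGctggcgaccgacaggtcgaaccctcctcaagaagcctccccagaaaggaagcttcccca
Cyp51 promoter window, chr5:4104648-4104947 (- strand): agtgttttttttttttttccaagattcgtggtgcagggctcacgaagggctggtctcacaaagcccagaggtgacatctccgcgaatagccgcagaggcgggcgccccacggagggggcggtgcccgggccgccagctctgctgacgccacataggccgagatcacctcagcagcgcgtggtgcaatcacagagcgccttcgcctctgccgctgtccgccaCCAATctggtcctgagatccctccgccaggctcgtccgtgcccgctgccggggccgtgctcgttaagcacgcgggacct
Nsdhl promoter window, chrX:72918271-72918570 (+ strand): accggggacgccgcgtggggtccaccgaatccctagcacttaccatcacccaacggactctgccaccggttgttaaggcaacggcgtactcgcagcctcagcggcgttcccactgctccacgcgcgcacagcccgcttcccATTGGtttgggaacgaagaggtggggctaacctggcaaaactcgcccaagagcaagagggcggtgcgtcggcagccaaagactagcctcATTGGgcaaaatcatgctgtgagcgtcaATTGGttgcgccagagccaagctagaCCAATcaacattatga
The Hmgcs1 and Nsdhl windows each hold 4 CCAAT boxes, the Idi1 window 2 and the Cyp51 window 1, and the single TCACNCCAC match lies in Hmgcs1.

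**Figure D3:**
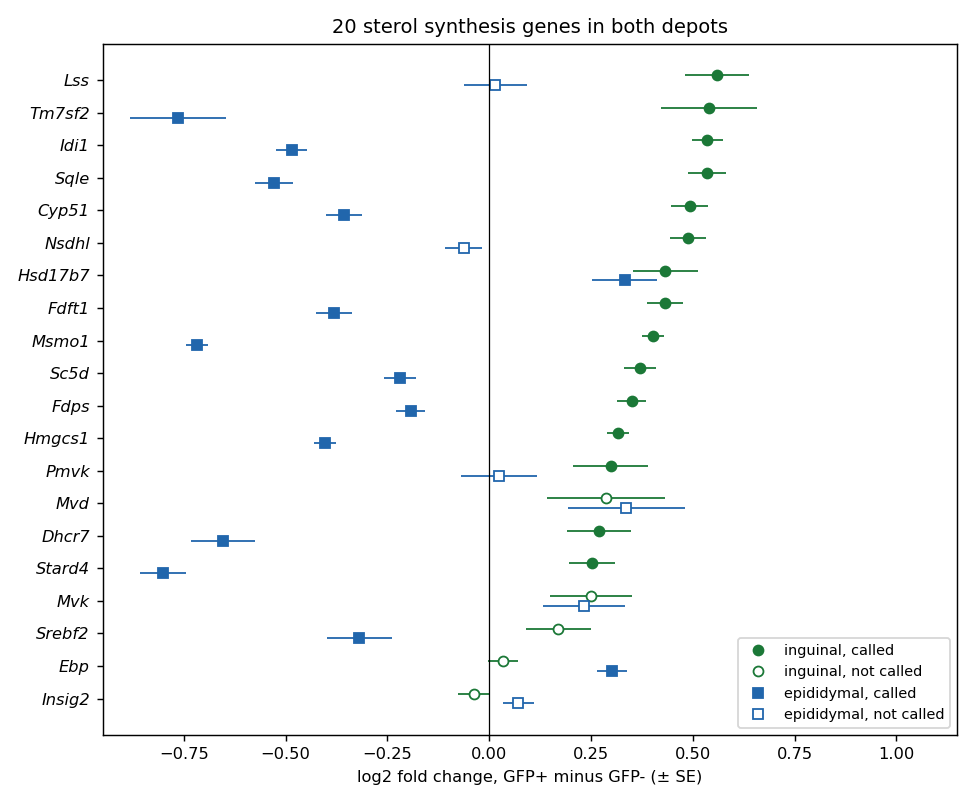
Log2 fold change of GFP+ over GFP- (horizontal axis, bars are SE) for the 20 measured sterol synthesis genes, inguinal as circles and epididymal as squares, filled where called. All 15 called inguinal changes lie to the right of zero, while 12 of the 14 called epididymal changes lie to the left.

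Beyond sterols, lipid genes of the fat lineage rose in part. Of 30 measured genes for lipid uptake, synthesis and storage 9 rose and 3 fell, with a median of 0.12. Lpl, the lipase that releases fatty acids from lipoproteins, read 11414, 8464 and 12566 in GFP+ and 3916, 4439 and 4554 in GFP-, a 2.48-fold rise (log2 1.31 ± 0.11, adjusted p = 8.71e-07, limma). GFP+ replicate 2 was its lowest GFP+ array. Mgll, the monoglyceride lipase, fell 1.69-fold (means 3831 and 6405), and Fabp5, a fatty acid carrier that macrophages also express, fell 1.31-fold (12862 and 16870).

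Transcription factors of fat cell differentiation split evenly, with 7 of 34 higher, 6 lower and a median of 0.02. Besides Zfp423 and Pparg, Ebf3, an early B cell factor known to act on Pparg, rose 1.72-fold (means 587 and 333). Cebpa and Cebpb, the C/EBP partners of Pparg, had means of 443 and 477, and of 8199 and 8018, and neither was called. The largest fall was in Nfib, a nuclear factor I gene, which read 298, 268 and 305 in GFP+ and 744, 749 and 793 in GFP-. That is a 2.54-fold difference (log2 -1.35 ± 0.06, adjusted p = 4.58e-10, limma), with no overlap between groups. Klf5, a Kruppel-like factor known to act early in adipogenesis, fell 1.75-fold (163 and 296). Among 22 brown and beige fat genes 4 rose and 2 fell (5.26% and 7.29% over all genes). Bmp8b, a ligand made by brown fat, rose from a mean of 17.8 to 69.0, weak in both groups, and Gatm, which makes the precursor of creatine, fell 2.68-fold (64.5 and 200).

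Published markers of fat progenitor classes were split. Of 19 genes of committed preadipocytes 6 rose and 6 fell, with a median of 0.17, and Icam1, which marks that class in mouse fat, had means of 176 and 146 and was not called. Of 17 genes of the interstitial class 2 rose (1 when any single array other than GFP+ replicate 3 was left out) and 4 fell, and its defining genes Dpp4 and Pi16 were weak in both groups and not called (means 14.1 and 11.8 for Dpp4, and 7.53 to 18.2 in GFP+ and 4.18 to 23.6 in GFP- for Pi16). Of 17 genes of the CD142+ class 4 rose (7 without GFP+ replicate 2) and 5 fell. F3, which encodes CD142 itself, read 7276, 7026 and 7552 in GFP+ and 4871, 4829 and 5267 in GFP-, a 1.46-fold rise (log2 0.55 ± 0.04, adjusted p = 2.77e-07, limma). Its groups did not overlap.

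Matrix genes were counted by type. Small leucine-rich proteoglycans, which coat collagen fibrils, accounted for 5 of the 6 increases among 25 proteoglycan genes, of which 4 fell. The 4 include a granule proteoglycan that leukocytes also express and that is outside the leukocyte lists. Prelp read 3733, 3247 and 3633 in GFP+ and 1852, 1744 and 1898 in GFP-, a 1.92-fold rise (log2 0.94 ± 0.06, adjusted p = 2.13e-08, limma). Aspn, or asporin, rose 1.72-fold (means 3564 and 2037) and Dcn, or decorin, 1.94-fold (5419 and 2717). In Dcn and Aspn GFP+ replicate 2 was the lowest GFP+ array, at 3562 and 2635, and still above the highest GFP- array, at 3236 and 2307. Elastic fibre and matricellular proteins rose in 10 and fell in 9 of 40 cases. Dpt, or dermatopontin, read 921, 544 and 1067 in GFP+ and 95.0, 150 and 173 in GFP-, a 5.46-fold rise. Spon1, a spondin, rose 4.19-fold (means 328 and 58.5), with its lowest GFP+ value in replicate 2. Thbs2, a thrombospondin that binds matrix proteases, rose 1.44-fold, with 23841, 21106 and 23119 against 15387, 15606 and 16062.

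Of 29 collagens 10 fell and 4 rose (7.29% and 5.26% over all genes), 15 were not called, and the median was -0.17. Without GFP+ replicate 2, 8 fell and 4 rose. The basement membrane collagens Col15a1 and Col18a1 fell the most. Col15a1 read 798, 666 and 864 in GFP+ and 1910, 1850 and 1969 in GFP-, a 2.44-fold fall (log2 -1.29 ± 0.09, adjusted p = 6.98e-08, limma). Col18a1 fell 2.43-fold (means 573 and 1401) and the fibrillar Col11a1 1.93-fold (2016 and 3860). The rises were in the microfibril collagens Col6a1 (1.41-fold) and Col6a2 (1.59-fold), in the network-forming Col8a1 (1.65-fold) and in 1 other gene.

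Some other basement membrane and pericellular genes fell with Col15a1. Among 27 laminins, nidogens and integrins 8 fell and 4 rose. Lama1 and its receptor subunit Itga6 fell 2.08-fold and 2.24-fold. Smoc1 and Smoc2, secreted calcium-binding proteins that bind matrix, fell 2.94-fold and 2.65-fold. Pcolce2, which enhances procollagen cleavage, fell 4.05-fold, with 140, 176 and 127 against 695, 694 and 549. Timp3, a matrix-bound protease inhibitor, fell 1.41-fold (13745 and 19342). Pcolce2 and Timp3 are on a list of 40 matrix proteases and inhibitors, of which 9 rose and 8 fell. Leaving out single arrays gave 6 to 11 rises and 5 to 9 falls in that list. Smoc1 and Smoc2 are on the matricellular list counted above, in which 10 rose and 9 fell, so neither list fell as a whole.

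Growth factor genes changed in both directions. Igfbp2, a secreted protein that binds insulin-like growth factors, read 1502, 1975 and 1381 in GFP+ and 8655, 8969 and 8710 in GFP-, a 5.44-fold fall (log2 -2.44 ± 0.09, adjusted p = 1e-10, limma). Igfbp4 fell 2.12-fold (means 3004 and 6385). Irs1, the substrate through which the insulin and IGF receptors signal, rose 1.68-fold (2362 and 1397). Over the axis 5 of 19 genes rose and 3 fell. Of 35 other growth factor ligands 7 rose and 7 fell, with the lymphatic growth factor Vegfd (1.92-fold) and the hepatocyte growth factor Hgf (1.56-fold) higher and the EGF-like Hbegf (1.58-fold) lower.

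BMP and TGF-beta genes fell more often than they rose, 11 against 3 of 43 (7.29% and 5.26% over all genes), with a median of -0.07. Tgfb3 read 3228, 3693 and 3205 in GFP+ and 6368, 6138 and 6116 in GFP-, a 1.84-fold fall (log2 -0.88 ± 0.05, adjusted p = 7.34e-09, limma). Fst, or follistatin, which blocks activins, fell 1.62-fold (means 1448 and 2359), while Inhbb, an activin subunit, rose 1.56-fold (5828 and 3741). Id4, a target gene of BMP signalling, fell 1.66-fold (685 and 1150). Inhibitor and ligand of the activin branch therefore moved in opposite directions.

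Smooth muscle and mural genes fell more often than they rose, as did genes over the whole comparison (7.29% and 5.26%). Of 31 measured genes 14 fell and 5 rose (3 without GFP+ replicate 1 or GFP- replicate 2), with a median of -0.10, and their summed signal was 293272 to 305505 in GFP+ and 326120 to 332503 in GFP-. The smooth muscle myosin Myh11 read 2566, 2817 and 2557 in GFP+ and 5328, 5313 and 5216 in GFP-, a 1.99-fold fall (log2 -0.99 ± 0.04, adjusted p = 1.84e-10, limma). Mcam and Cspg4, surface proteins of pericytes, fell 2.56-fold and 2.07-fold. The called genes named here all fell, and the 5 that rose are not named. A muscle filament gene that also marks mural cells rose. Actg2, an actin of visceral smooth muscle, fell 1.52-fold (means 18285 and 27675). Acta2, which cultured myofibroblasts also express, had means of 37676 and 37013 and was not called, but it fell by 0.27 on the log2 scale when its probe sets were averaged. Rgs5, a defining pericyte gene, was weak in both groups (42.3 and 67.5) and not called. The part of mural cells in these values was not tested.

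Positional and lineage transcription factors gave a few steep falls. Hox genes record the position of a fibroblast along the body axis. Hoxd8 read 126, 109 and 124 in GFP+ and 690, 683 and 709 in GFP-, a 5.24-fold fall (log2 -2.39 ± 0.07, adjusted p = 4.62e-12, limma). Its neighbour in the same cluster, Hoxd9, was weaker (means 24.3 and 78.0) and fell 2.40-fold. Meox2, a homeobox gene of mesoderm, read 56.2, 31.7 and 78.2 against 473, 495 and 557. Its fall of 7.61-fold took it from a clear signal in GFP- to a weak mean in GFP+. Over 59 patterning factors 3 rose and 7 fell (5.26% and 7.29% over all genes), with 49 not called.

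Other factors that fell include 2 Notch targets. Hey2 read 38.4, 37.7 and 36.8 in GFP+ and 144, 126 and 97.3 in GFP-, a 2.55-fold fall, and Hey1 fell between means that were both weak (25.1 and 65.8). Plagl1, an imprinted zinc-finger gene, fell 2.30-fold (221 and 529), and Tbx18, a T-box factor of mural and other mesenchymal cells, fell 1.56-fold. In all, 9 of 84 further transcription factors rose and 17 fell (5.26% and 7.29% over all genes). Leaving out single arrays gave 11 to 15 falls, with 11 without GFP- replicate 1 or 2.

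Sox2, Lgi1 and Erbb3, grouped here after their values were seen, fell. Sox2, a stem cell and glial factor, read 16.9, 8.15 and 6.14 in GFP+ and 69.7, 101 and 94.7 in GFP-. Lgi1, a secreted synaptic protein, read 25.8, 27.2 and 17.7 against 199, 170 and 136, and Erbb3, the neuregulin receptor of Schwann cells, had means of 68.2 and 145. These genes were thus weak in GFP+ and modest in GFP-. The defining Schwann genes did not pass the test: Sox10 had means of 39.2 and 65.6 (adjusted p = 0.0601, limma) and S100b of 118 and 135. Of 14 Schwann and muscle markers 4 rose and 0 fell. Those that rose include genes of Schwann cell myelin, so these went the other way from Sox2, Lgi1 and Erbb3. The part of glial cells in these values was not tested.

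Of 40 adhesion genes 9 fell (6 to 12 when single arrays were left out), 4 rose and 27 were not called. Of 49 guidance genes 9 fell, 4 rose and 36 were not called. The shares over all genes were 7.29% lower and 5.26% higher. Cadm4, an adhesion molecule of the immunoglobulin family, read 581, 563 and 608 in GFP+ and 1687, 1672 and 1649 in GFP-, a 2.81-fold fall (log2 -1.49 ± 0.06, adjusted p = 4.05e-10, limma). Epha3, an ephrin receptor, fell 3.44-fold (means 243 and 871). Slit2, a secreted repellent, fell 1.52-fold (2587 and 3954). Sema5a, a membrane-bound semaphorin, rose 2.55-fold from a weak GFP- level (104 and 32.6). Gjb2, a gap junction protein, fell 2.19-fold (905 and 1995).

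Channels and receptors contributed single large changes. Trpc6, a calcium-permeable channel, read 375, 278 and 351 in GFP+ and 56.4, 79.5 and 48.2 in GFP-, a 4.56-fold rise (log2 2.19 ± 0.15, adjusted p = 6.28e-08, limma). Aqp1, a water channel, fell 3.85-fold, from 278, 320 and 331 to 68.5, 70.1 and 66.8. Most of that list was not called, 43 of 51 genes. Ptger2, a receptor of prostaglandin E2, fell to the level of the olfactory receptor genes (means 19.2 and 98.2), so the size of its fall is set by the pseudocount. Ptges, the enzyme that makes this prostaglandin, rose 1.89-fold with 1600, 1584 and 1651 against 859, 846 and 829.

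Immune mediators rose more often than they fell, in the same arrays in which leukocyte markers fell. Of 50 chemokine, cytokine and prostanoid genes 10 rose and 5 fell (3 without GFP- replicate 3). The shares over all genes were 5.26% higher and 7.29% lower. Ccl8, a monocyte attractant, read 1269, 897 and 1409 in GFP+ and 287, 337 and 382 in GFP-, a 3.40-fold rise (log2 1.77 ± 0.16, adjusted p = 1.41e-06, limma). The related Ccl2 rose 1.57-fold (means 3020 and 1914), and the eosinophil attractant Ccl11 rose 2.43-fold (155 and 56.2). Il11, a cytokine of the interleukin-6 family, fell 2.21-fold (572 and 1275). C1s1 and C1ra, proteases of the first complement component, rose 1.73-fold and 1.45-fold. Interferon response and antigen presentation genes rose in 12 and fell in 2 of 40 cases, with a median of 0.27. Leaving out single arrays gave 7 to 13 increases, with 7 without GFP+ replicate 1 or GFP- replicate 1, and 0 or 1 decreases in every case. Among those that held under every alternative were Bst2, an antiviral tether (1.48-fold), and Oas1a, a sensor of double-stranded RNA (1.38-fold).

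Glutathione and redox genes changed in both directions. Ggt5, a surface enzyme that cleaves glutathione and its leukotriene conjugates, read 788, 499 and 781 in GFP+ and 109, 149 and 155 in GFP-, a 4.55-fold rise. Dpep1, a dipeptidase that acts after it, rose 3.19-fold (means 1718 and 527). Gsta4, a glutathione transferase, fell 4.50-fold (181 and 860), and the antioxidant quinone reductase Nqo1 fell 1.82-fold (1522 and 2762). In all 6 of 39 such genes rose, 5 fell and 28 were not called.

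Large groups of housekeeping and growth genes stayed near the centre. None of 36 ribosomal protein genes was called, with a median log2 fold change of 0.01, and 2 of 36 respiratory chain genes rose while 1 fell (1 to 3 and 0 to 2 when single arrays were left out). Among 48 cell cycle genes 0 rose and 5 fell (10 without GFP+ replicate 2, and 2 when any other array except GFP- replicate 3 was left out), with a median of -0.09, and 2 of those 5, Cdkn2b (1.29-fold) and Rrm1 (1.17-fold), kept their call under every alternative. Over all genes 12.6% were called. Of markers of other cell types, 0 of 15 epithelial genes were called, and 3 of 19 endothelial genes rose and 1 fell (3 without GFP+ replicate 2, and 0 when any other array except GFP- replicate 3 was left out).

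**Figure D4:**
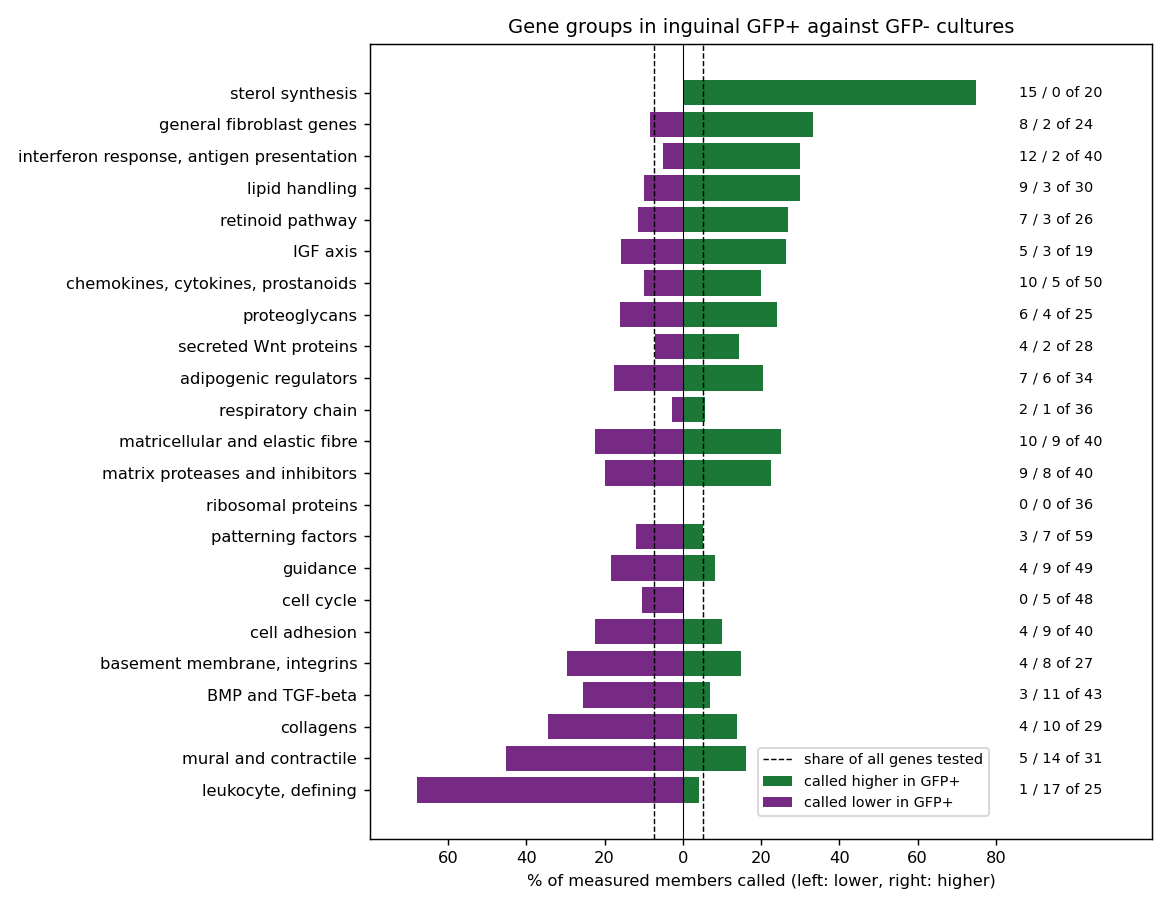
Share of measured members called higher (right, green) or lower (left, purple) in inguinal GFP+ cultures for 23 gene groups, with the counts at the right and dashed lines at the shares of all tested genes (5.26% and 7.29%). Sterol synthesis has the largest share of increases, 15 of 20, and the defining leukocyte genes the largest share of decreases, 17 of 25.

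The epididymal sort of the same series was used to see where the inguinal contrast differs. In epididymal cultures 5187 genes were called (41.9%), and the difference between the depots was called for 4313 (34.8%). Of the 1556 inguinal calls 1124 were also called in epididymal cultures, which is 72.2% of the inguinal and 21.7% of the epididymal calls. Directions did not simply repeat: 285 genes rose and 335 fell in both depots, while 206 rose in inguinal but fell in epididymal GFP+ cells and 298 did the reverse. The difference between depots was itself called for 1121 of the 1556 genes.

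Genes that rose in both depots include the 4 markers and several of the leading genes. On the log2 scale the inguinal and epididymal rises were 3.44 and 4.46 for Mrap, and 1.81 and 4.30 for Fabp4. Cyp7b1 rose by 2.02 and 3.02, Dpep1 by 1.67 and 3.74, and Lgr6 by 1.75 and 2.37. For each of these 5 genes the epididymal change was the larger one and the difference was called. Rspo2 was the reverse, with 2.54 in inguinal and 1.01 in epididymal cells (interaction adjusted p = 9.07e-05, limma). Pgr rose by 1.66 and 1.92 and Ggt5 by 2.18 and 1.69, and for both genes the difference was not called (interaction adjusted p = 0.593 and 0.187, limma).

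Falls shared by the depots include Igfbp2 (log2 -2.44 in inguinal and -2.04 in epididymal), Gsta4 (-2.17 and -2.55), Gatm (-1.42 and -2.03) and Nfib (-1.35 and -1.42). For Nfib and Gsta4 the difference between depots was not called (interaction adjusted p = 0.559 and 0.225, limma). For Nfib that difference was 0.08 ± 0.09 (inguinal minus epididymal) on the log2 scale.

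Opposite changes were as prominent. Sfrp2 rose by 2.57 in inguinal GFP+ cells and fell by 6.00 in epididymal ones (interaction adjusted p = 6.26e-10, limma). Krt7, a keratin of simple epithelia and mesothelium, rose by 1.82 and fell by 4.67. Aldh1a1 rose by 1.66 and fell by 2.53, and Aldh1a3 did the reverse, with -2.94 in inguinal and 1.22 in epididymal cells. Each of these retinoid enzymes thus had opposite signs in the 2 depots. Col15a1, Pcolce2, Smoc1 and Lama1 fell in inguinal cells (-1.29, -2.02, -1.55 and -1.06) and rose in epididymal ones (3.16, 1.38, 1.16 and 4.88). Meox2 and Sox2 fell in inguinal cells, their epididymal changes of 0.38 and 0.07 were not called, and the difference between depots was called for both (interaction adjusted p = 9.95e-07 and 0.000175, limma). The sterol list turned as a group: 2 of its 20 genes rose and 12 fell in epididymal GFP+ cells, with a median of -0.27, and the difference between depots was called for 15.

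**Figure D5:**
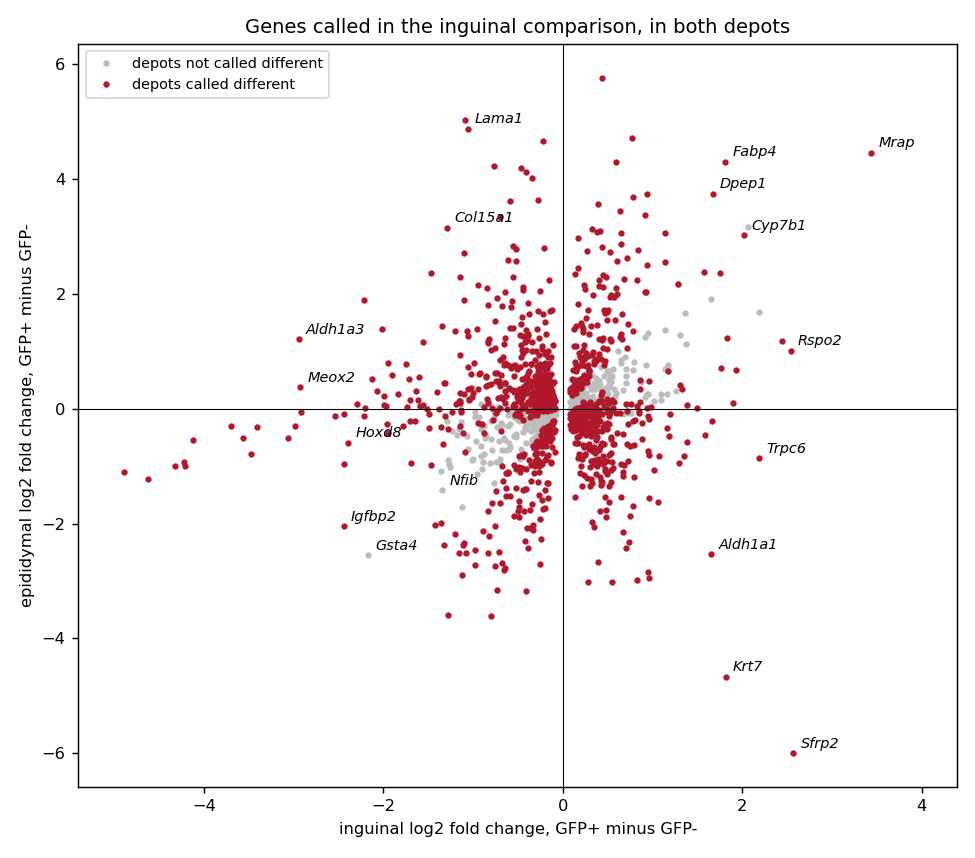
Epididymal against inguinal log2 fold change of GFP+ over GFP- for the 1556 genes called in inguinal cultures; red points are genes whose change differed between depots by the test. Mrap, Fabp4 and Cyp7b1 lie at the upper right, Igfbp2, Gsta4 and Nfib at the lower left, and Sfrp2, Krt7 and Aldh1a1 at the lower right.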

How the data were processed

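Total RNA was labelled with biotin and hybridised to the 12 Affymetrix arrays, per the labels, which do not say how many cultures it came from. The authors deposited one linear intensity per probe set and array; how the authors summarised, background-corrected and scaled them is not given in the sources used here. Of 22626 probe sets, 20380 had 1 gene symbol in the platform annotation, 691 several and 1555 none, and those with 1 symbol were kept. Gene names were brought up to date with the RefSeq table of build GRCm38.p6, where 24 genes had no current match. The probe set with the highest mean stood for its gene, which left 12393 genes. Weak genes were those in the lowest 30% of mean log2 signal (under 6.55, a signal of 77.7).

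Groups came from the sample labels. No further normalization was applied. Values were taken as log2(signal + 16) and analysed by limma 3.58.1 (R 4.3.3; lmFit, then eBayes with a trend) over all 12 arrays, with no block, and called at a Benjamini-Hochberg adjusted p of 0.05. The fit was tested on simulated data. Alternatives were quantile normalization, the replicate block, median centring, a pseudocount of 1 or 64, weak genes left out, inguinal arrays only, averaged probe sets, no variance trend, and each inguinal array left out. Lists are described by counts and medians.

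The genes and lists were chosen with earlier results of these data known. The naming rule took the 4 markers; outside the leukocyte lists, the 25 genes per direction with the largest called change, without overlap between groups and not weak in the higher one, and the 10 with the largest difference of linear means; up to 5 called members per list, or the 2 brightest uncalled; and, of genes called in both depots, 8 per sign pattern. It named 214 genes. The text names 123 genes, of which 100 follow the rule and 23, among them cell type markers and pathway partners, were chosen after values were seen. Promoter windows are RefSeq sequences.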

Additional observations from a re-analysis of the deposited data

Results flagged for a closer look

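Of the 123 genes named in the text, 100 changed differently in the inguinal and the epididymal sort by the interaction test of the same limma fit (adjusted p under 0.05), and 34 of these were called in opposite directions in the 2 depots. Across all genes 34.8% carry such a call, so the test alone singles out no gene. Values below are inguinal minus epididymal log2 fold changes. The 2 comparisons share no arrays. No formal outlier test was run on the groups of 3 arrays, and no array was removed from the main fit.

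Opposite calls began with genes that rose in inguinal and fell in epididymal GFP+ cells. Sfrp2 differed by 8.57, Krt7 by 6.48, Aldh1a1 by 4.18, Trpc6 by 3.05, Ccl2 by 2.20, Sema5a by 2.17 and Aldh1a2 by 2.03. Further down were C1s1 at 1.98, Col6a2 at 1.85, C1ra at 1.81, Col8a1 at 1.63, Col6a1 at 1.62, Avpr1a at 1.5, Irs1 at 1.39 and Bst2 at 1.18. The sterol genes of this kind were Sqle at 1.06, Idi1 at 1.02, Cyp51 at 0.85 and Hmgcs1 at 0.72.

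Other genes fell in inguinal and rose in epididymal GFP+ cells. Lama1 differed by -5.94, Col15a1 by -4.45, Aldh1a3 by -4.16, Il11 by -3.44, Pcolce2 by -3.40, Aqp1 by -2.74 and Smoc1 by -2.71. Smaller differences were those of Tbx18 at -1.88, Myh11 and Wnt5a at -1.78 each, Fabp5 at -1.59, Nqo1 at -1.41, Ephx2 at -1.29, Fst at -1.10 and Actg2 at -0.94.

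Genes that rose in both depots mostly rose more in epididymal cells: Aspn differed by -2.91, Inhbb by -2.81, Prelp by -2.79, Fabp4 by -2.49, Ptges by -2.45, Hgf by -2.42, Thbs2 by -2.20 and Dpep1 by -2.07, then Zfp423 by -1.56, Cd53 by -1.11, Mrap by -1.02, Cyp7b1 by -1.01, Pparg by -0.89 and Lgr6 by -0.62. The inguinal rise was the larger one for Rspo2 at 1.53, Dpt at 1.27, Ccl8 at 1.06, Lpl at 0.90 and Greb1 at 0.59. Genes called higher in inguinal cells alone included Crabp1 at 1.88, Dkk2 at 1.32, Dcn at 1.08, Bmp8b at 0.98, Vegfd at 0.92, Nsdhl at 0.55, Lss at 0.54 and Oas1a at 0.42.

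Among genes that fell in both depots the inguinal fall was larger for Lyz2 at -3.29, Hoxd8 at -1.80, Epha3 at -1.48, Mcam at -1.04, Col18a1 at -0.93, Tgfb3 at -0.45, Igfbp2 at -0.40 and Igfbp4 at -0.34. The epididymal fall was larger for Ahr at 2.81, Cdkn2b at 1.71, Itga6 at 1.34, Mgll at 1.29, Plagl1 at 0.98, Gatm at 0.61, Hbegf at 0.60, Slit2 at 0.51, and Rrm1 and Timp3 at 0.33 each. Genes called lower in inguinal cells alone included Meox2 at -3.31, Lgi1 at -2.10, Sox2 at -2.06, Ptger2 at -1.85, Smoc2 at -1.70, Cadm4 at -1.40, Hey1 at -1.28, Cspg4 at -1.21, Gjb2 at -1.08, and Erbb3 and Id4 at -0.69 each.

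Of genes not called in inguinal cells, the mesothelial genes Upk3b and Msln differed by 3.87 and 3.33, since they fell in epididymal GFP+ cells. Dpp4 differed by 2.59, Icam1 by 1.71, Cebpa by -1.19, Rgs5 by -1.17, Srebf2 by 0.49, Vim by 0.16, Col1a2 by -0.15 and Acta2 by 0.14.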

How the results depend on the processing

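Counts over all genes stayed within 1.5 times under all alternatives run, except at the 2-fold limit: a pseudocount of 64 left 31 genes higher and 67 lower by at least 2-fold, and leaving out weak genes left 68 lower. Leaving out single inguinal arrays gave 435 to 805 genes higher and 671 to 1040 lower, 42 to 72 and 115 to 128 by at least 2-fold, 432 to 799 and 609 to 969 outside the leukocyte lists, and 3897 to 4317 depot differences. The highest of these counts came without GFP+ replicate 2. Same-numbered arrays did not deviate together (correlations of 0.00782, -0.0838 and 0.105). With 3 arrays in each group this cannot settle whether same-numbered samples share a source, and the labels do not say. With the replicate number as a block 605 genes were higher and 861 lower, 49 and 119 by at least 2-fold, 600 and 793 outside the leukocyte lists, and 4158 depot differences were called. Of the 1556 called genes 754 kept their call under every alternative, and 145 of the 168 called at 2-fold did. Of the genes named in the text, Dkk2 lost its call with a pseudocount of 1 (adjusted p = 0.131, limma) and Lss with averaged probe sets (adjusted p = 0.126, limma), and Acta2 turned from 0.03 to -0.27 with averaged probe sets. Causes were not tested. Genes near the array floor have fold changes set by the pseudocount, and Dkk2 was not near it in the inguinal arrays. Counts of list members under these settings were added after the data were seen. Of the lists recomputed under every setting, leukocyte falls went from 17 to 9 with weak genes left out. That setting also removed 10 of the 25 leukocyte members from the fit. Fibroblast falls went from 2 to 0 with no variance trend. With single arrays left out mural rises went from 5 to 3 and interferon rises from 12 to 7. Interferon falls went from 2 to 0 or 1 with single arrays left out and to 1 under 5 other settings.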
